A study of Xenopus tropicalis with 20 samples.

Results

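The livers of F2 females whose F0 founders lived in water with benzo[a]pyrene plus triclosan, the mixture line, were compared with the livers of F2 control females, 5 libraries in each group, which are 10 of the 20 libraries of the study. The animals were Xenopus tropicalis, the western clawed frog, and the members were chosen from the labels alone. In the mixture line the F0 founders were exposed at 50 ng/L from the tadpole stage until they were mature adults, and neither the F1 nor the F2 females were exposed themselves. The labels do not say whether 50 ng/L was the level of each compound or of their sum, and they give no strain or age beyond maturity. RNA was taken from 15 mg of liver per biological replicate and sequenced as 75 bp reads with a strand-specific mRNA kit. The labels do not name the parents or clutches, so p-values measure the spread between these females, some of which may be sisters. Reads of the controls came from an earlier deposit, so line and library batch cannot be told apart. Below, F2 mixture and F2 control name the 2 groups, and F1 mixture and F1 control, also 5 libraries each, serve as a reference for levels.

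Benzo[a]pyrene is a polycyclic aromatic hydrocarbon that activates the aryl hydrocarbon receptor, which switches on cytochrome P450 genes such as cyp1a1. Triclosan is an antimicrobial agent found in surface water. The liver oxidises fatty acids, breaks down amino acids, assembles lipoproteins, stores iron, makes most plasma proteins and, in female frogs, makes the yolk precursor vitellogenin. The F1 animals grew from germ cells that had been carried by exposed F0 animals, whereas the F2 animals descended from unexposed F1 parents. Roles of genes given below are those known for the mammalian proteins.

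Levels are FPKM (fragment counts normalised for transcript length and library size) as the authors' Cufflinks run estimated them, divided by a scaling factor per library. Differences are on the log2(scaled FPKM + 1) scale with their SE, which understates the change of genes with low levels, and levels are means ± SD of 5 libraries unless a single library is named. A gene is called where its Benjamini-Hochberg adjusted p by limma was under 0.05. The limits deposited with the FPKM correspond to 9502272 to 14710620 fragments per F2 library, and 8466 to 10375 genes had an FPKM of 1 or more. For genes with an FPKM from 5 to 20, the deposited limits lay 8.73% to 10.65% to either side of the value, which covers counting error only.

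Of 10228 genes tested, 2630 (25.7%) differed between F2 mixture and F2 control livers. F2 mixture was higher in 1151 genes (11.3%) and lower in 1479 (14.5%). Without scaling the libraries the split was 624 higher and 1337 lower. A change over 2-fold was called in 801 genes, 373 higher and 428 lower, while the median difference over all tested genes was -0.04. All 5 libraries of one F2 group lay beyond all 5 of the other in 1570 genes (15.4%), with F2 mixture above in 815 (7.97%) and below in 755 (7.38%). Calls that passed again in each of the 10 fits that left out 1 F2 library and in the fit with the replicate number as a block, here named held calls, numbered 1542 (15.1%), of which 687 (6.72%) were higher and 855 (8.36%) lower. The authors' deposited table marked 1822 of the tested genes (17.8%) as significant. Without F2 mixture 4 the number of genes called was smallest, 1774, with 762 higher and 1012 lower.

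**Figure D1:**
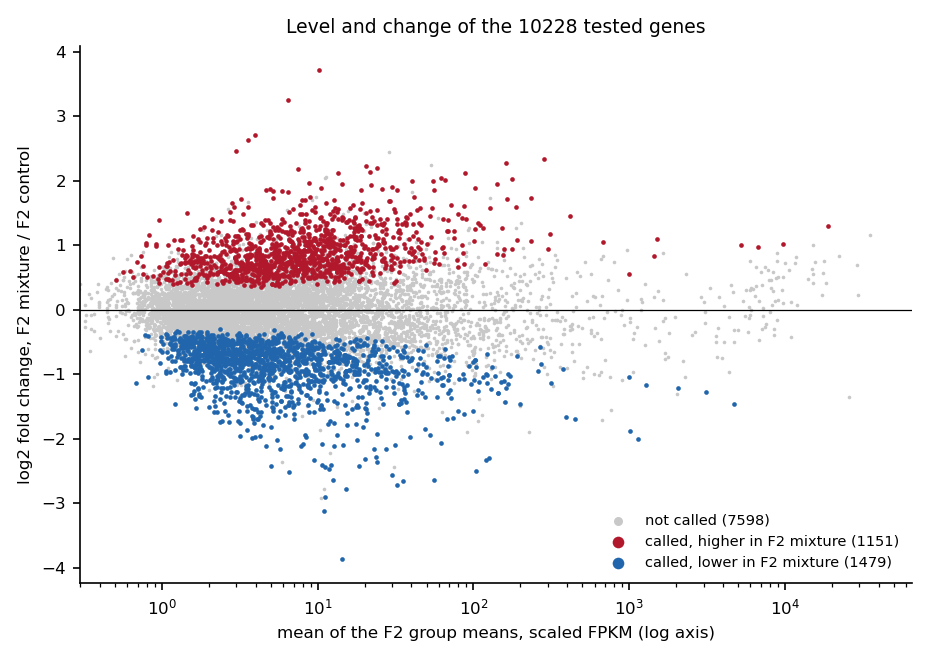
Each point is 1 of the 10228 tested genes, with the mean of the F2 group means in scaled FPKM on a log axis (horizontal) and the log2 fold change of F2 mixture over F2 control (vertical). Red points are the 1151 called genes higher in F2 mixture, blue points the 1479 lower ones and grey points the rest. Blue points crowd at low levels, where 17.5% of genes with a mean FPKM of 1 to 5 were lower and 5.75% higher.

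The balance of directions followed the level of the gene. Among 5005 genes with a mean FPKM between 1 and 5, 876 were lower and 288 higher in F2 mixture, whereas among 3418 genes between 5 and 20, 596 were higher and 445 lower. With genes under a mean FPKM of 5 left out of the test, 878 of 5223 genes were higher and 608 lower.

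The first principal component held 39.6% of the variance of the 10 F2 libraries and separated the groups. F2 controls lay between -34.75 and -24.97 on it. F2 mixture libraries 1, 3, 4 and 5 lay between 21.52 and 56.2, and F2 mixture 2 lay at 1.9, nearest to the controls. Genes called without F2 mixture 2 were then looked up in it, and 72.7% lay on the same side of the F2 control mean there, with a median of 41.5% of the effect. For the other 9 libraries left out in the same way, 93.2% to 99.3% of genes lay on the same side of the other group's mean. F2 mixture 2 therefore stood apart from its group, and without it 3287 genes were called in place of 2630.

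**Figure D2:**
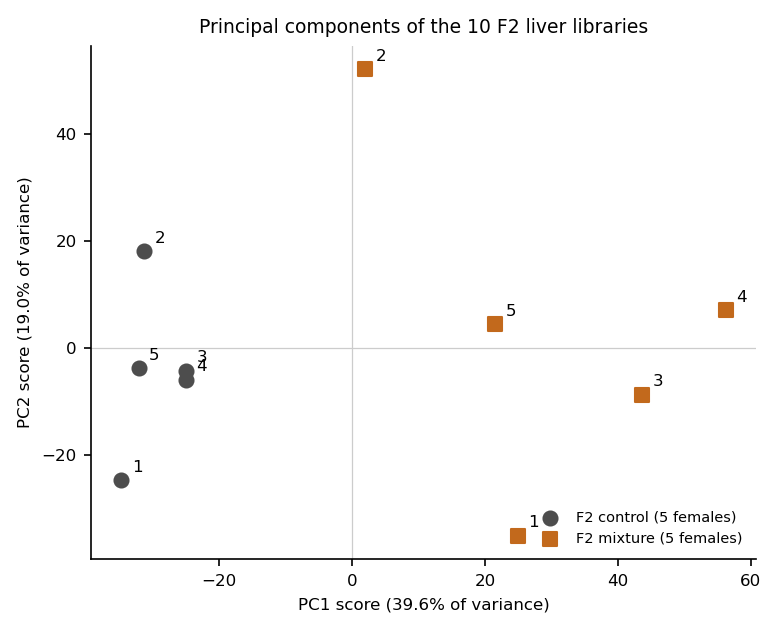
Scores of the 10 F2 liver libraries on the first (horizontal, 39.6% of variance) and second (vertical, 19.0%) principal component of log2(scaled FPKM + 1), with the replicate number beside each point. Grey circles are F2 control and orange squares F2 mixture. The groups do not overlap on the first component, and F2 mixture 2 sits nearest to the controls.

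Hepatocyte markers were abundant in every library, as a liver sample requires. The 17 with a value in every library summed to 12145 to 17255 scaled FPKM (median 15409) in F2 control and 4834 to 15710 (median 8575) in F2 mixture, and 6 of 17 tested members (35.3%) were lower and 0 higher. In the fit without F2 mixture 2, 5 were lower and 2 higher. Shares over all tested genes were 14.5% lower and 11.3% higher, here and for the marker lists that follow. The 20 red blood cell markers with a value in every library summed to 24617 to 69296 (median 47538) in F2 control and 5982 to 63108 (median 20565) in F2 mixture, and 3 of 18 tested members (16.7%) were lower and 0 higher. The largest part of this sum was hbg1, at 33794 ± 15155 and 17745 ± 16266 (adjusted p = 0.222). The sum leaves out hba1, which lacked a value in some F1 libraries and stood at 64168 ± 29562 and 53192 ± 41292. The median difference of the tested members was -0.38, and 3 of the 18 had a positive difference. With the mean log2(scaled FPKM + 1) of tested red blood cell markers, in place of their sum, as a covariate 2299 genes were called. Leukocyte and Kupffer cell markers summed to 171 to 463 in F2 control and 193 to 308 in F2 mixture, with 2 of 19 (10.5%) higher and 2 lower. Endothelial and stellate cell markers summed to 89.1 to 153 and 104 to 189, with 3 of 12 higher, stab1, col1a1 and col3a1, and 2 lower, cdh5 and tek. Bile duct markers summed to 422 to 854 and 384 to 1100, with 1 of 8 (12.5%) lower. Oocyte and ovary markers summed to at most 14.5 in any F2 library. Pigment cell markers summed to 5.46 to 12.3 and 2.66 to 5.95, with tyr, the pigment enzyme tyrosinase, listed at 0 in 9 of 10 libraries. Of the pancreas list, 6 of 18 genes, among them ctrb1, prss2 and pnlip, were listed at 0 in all 10 F2 libraries, yet both tested members were higher, among them amy2a, an amylase gene, which stood at 27.5 ± 11 in F2 control and 150 ± 111 in F2 mixture. Apart from the fit with red blood cell markers, the part of these cells in the results below was not tested. In bulk liver fewer cells of a type and less RNA per cell cannot be told apart.

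Among the genes called between the F2 groups, F2 control was more often away from the F1 level than F2 mixture. All 5 F2 control libraries lay outside the other 15 libraries of the study in 979 of 10228 genes (9.57%), against 56 (0.548%) for F2 mixture, 43 (0.42%) for F1 control and 14 (0.137%) for F1 mixture. Among the 1151 genes higher in F2 mixture this held for the F2 controls in 537 (46.7%) and for F2 mixture in 7. In the 1479 lower genes it held for the F2 controls in 396 (26.8%) and for F2 mixture in 44. In the higher genes the median distance from the mean of the 10 F1 libraries was -0.96 for F2 control and -0.12 for F2 mixture, and in the lower genes it was 0.83 and 0.04. F2 mixture lay nearer to the F1 mean than F2 control did in 1018 higher genes (88.4%) and 1215 lower genes (82.2%), against 68.9% of all tested genes. By group means alone, F2 control lay outside the other 3 groups in 71.1% of tested genes and F1 control in 61.5%. Marker sums moved with the groups as well, and their part in these counts was not tested. The median hepatocyte sum was 15409 in F2 control, against 6427 in F1 controls and 10434 in F1 mixture. The median red blood cell sum, which leaves out hba1, was 47538 in F2 control, against 13302 and 50485. By the test of the difference itself, the F2 effect differed from the F1 effect in 2052 genes (20.1%). With red blood cell markers as a covariate it differed in 1211 genes, and with library weights in 3864. Of the 2630 called genes 1690 were among the 2052, a share to which the F2 effect itself contributes, since it is part of the difference. In the same limma fit 0 genes passed between F1 mixture and F1 control, where 1306 had an unadjusted p under 0.05 and the weights (limma arrayWeights) gave 1129 calls.

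**Figure D3:**
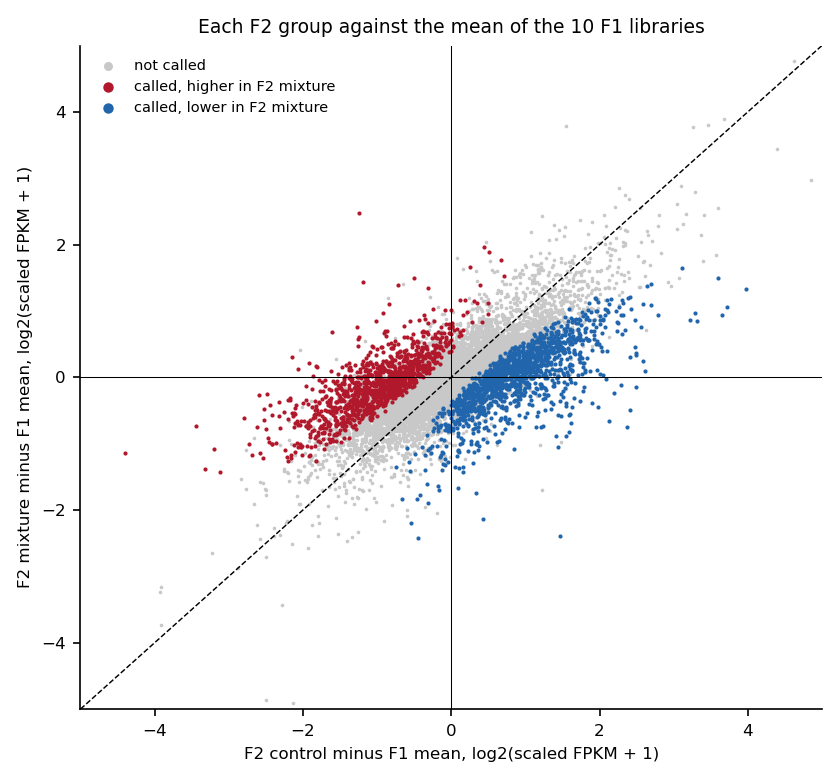
Each point is 1 of the 10228 tested genes, with the F2 control mean (horizontal) and the F2 mixture mean (vertical) given as differences from the mean of the 10 F1 libraries in log2(scaled FPKM + 1). The dashed line marks equal F2 groups. Called genes (red higher, blue lower in F2 mixture) spread along the horizontal axis, with median control distances of -0.96 and 0.83 and median mixture distances of -0.12 and 0.04.

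Among held calls, 12 genes with the smallest p that were higher in F2 mixture are described first. The gene rbm34, an RNA-binding protein of the nucleolus (chromosome 10, 10730881 to 10746199), stood at 4.11, 4.5, 5.02, 4.27 and 5.17 scaled FPKM in F2 control 1 to 5. In F2 mixture 1 to 5 it stood at 11.7, 10.6, 12.7, 10.9 and 10.6. Every F2 mixture liver lay above every control, by 1.13 ± 0.14 (adjusted p = 1.99e-05), and the F1 means were 5.84 and 6.21, so here it was F2 mixture that stood apart. For tsg101, a subunit of the ESCRT machinery that sorts membrane proteins, the F2 control libraries stood at 18, 14.8, 17.3, 14.1 and 14.3. Its F2 mixture libraries stood at 45.8, 38, 31.7, 39.4 and 39. The groups did not overlap (1.25 ± 0.15, adjusted p = 2.39e-05).

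In all 12 genes of this set the F2 control mean was the lowest of the 4 group means. For paf1, of the PAF1 elongation complex, F2 control 1 to 5 held 14.5, 10.3, 10.9, 12.7 and 8.84 scaled FPKM. F2 mixture 1 to 5 held 42, 22.9, 25.3, 40.8 and 34.4. The difference was 1.43 ± 0.18 (adjusted p = 3.15e-05), with F1 means of 30 in control and 24.5 in mixture. The Polycomb-associated gene yaf2 stood at 4.83 ± 0.762 in F2 control and 17.7 ± 5.85 in F2 mixture (1.65 ± 0.20), where F2 mixture 4 reached 28.2 and the other 4 lay between 14.6 and 15.5. The bromodomain gene brd3, which reads acetylated histones, stood at 1.86 ± 0.536 and 13.1 ± 6.62 (2.18 ± 0.29). Also higher were gtf3c5, of a factor for RNA polymerase III (1.12 ± 0.15), smarce1, of the SWI/SNF remodelling complex (1.31 ± 0.17), ints3, of the Integrator complex (1.57 ± 0.21), and nop2, a methyltransferase of ribosomal RNA (1.34 ± 0.18). The nuclear cyclophilin gene ppig (1.33 ± 0.18), the RNA-binding gene sltm (1.68 ± 0.23) and ccdc93, of an endosomal recycling complex (1.35 ± 0.18), complete the 12. Their adjusted p ran from 1.99e-05 to 7.74e-05, and in all 12 the 5 F2 mixture livers lay above the 5 controls.

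Lower genes with the smallest p are described next. The gene mttp.1, for the protein that loads lipid onto nascent lipoproteins (chromosome 1, 74431742 to 74466100), stood at 16.5, 19.3, 19.4, 11.9 and 22.9 scaled FPKM in F2 control 1 to 5. In F2 mixture 1 to 5 it stood at 3.73, 2.02, 4.15, 3.4 and 4.05. The difference was -2.08 ± 0.17 (adjusted p = 5.8e-07), and all 5 F2 mixture libraries also lay below all 10 F1 libraries, whose group means were 5.29 and 4.8. The iron exporter gene slc40a1 (ferroportin) stood at 91.2, 117, 94.1, 62 and 140 in F2 control. In F2 mixture it stood at 25.7, 26, 18.8, 19.4 and 24. The groups were far apart (-2.06 ± 0.22, adjusted p = 6.22e-06), with F1 means of 34.8 and 35.4 near the F2 mixture level.

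The secreted peptide gene apln (apelin) held 18.9, 17.7, 13.3, 17.7 and 34.5 scaled FPKM in F2 control. It held 3.36, 0.88, 1.52, 0.747 and 3.17 in F2 mixture. This was the largest difference of the 11 lower genes described here (-2.91 ± 0.30, adjusted p = 3.67e-06). The cytokine receptor gene il13ra1 was at 6.06 ± 0.606 in F2 control and 0.98 ± 0.56 in F2 mixture (-1.87 ± 0.16). The remaining members were adtrp, a membrane lipid hydrolase (-2.42 ± 0.21), mpp1, a membrane scaffold known from red cells (-2.42 ± 0.21), aplp2, an amyloid precursor-like protein (-2.16 ± 0.19), capza2, an actin-capping subunit (-1.79 ± 0.17), gm2a, a lysosomal lipid-transfer protein (-2.52 ± 0.26), xbg100487674, of no role named in the files (-1.98 ± 0.21), and pxmp2, a channel of the peroxisome membrane (-2.15 ± 0.24). The locus of aplp2 overlaps LOC101734072, and the strand used in counting is not stated. For each of the 11 genes the F2 mixture libraries lay below every F2 control and the F2 control mean was the highest of the 4 group means, with adjusted p from 5.8e-07 to 7.34e-06.

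**Figure D4:**
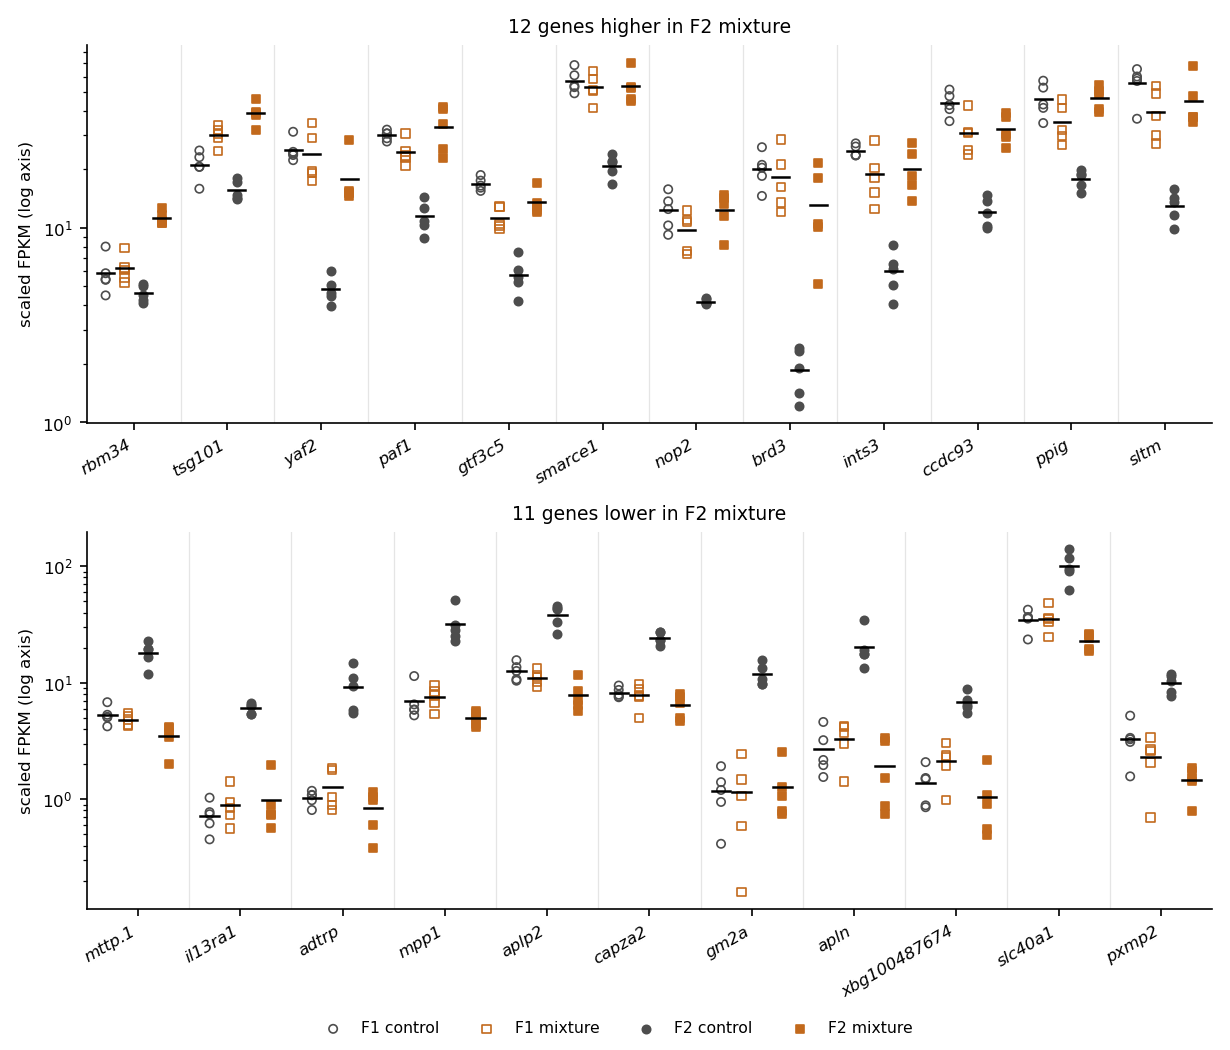
Scaled FPKM (log axis) of 12 higher (top) and 11 lower (bottom) genes among the held calls with the smallest p, for each of the 20 livers. Open symbols are F1, filled symbols F2, grey circles control, orange squares mixture, and bars the group means. For most genes the filled grey circles of F2 control stand away from the other 3 groups. For rbm34 and tsg101 the F2 mixture mean is the highest, 11.3 and 38.8 against 6.21 and 29.9 in F1 mixture. For paf1 and ppig it is also the highest but near F1 control (33.1 and 30, 46.8 and 45.8), and for nop2 both stand at 12.3.

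Genes of pre-mRNA splicing were called mostly in the higher direction. In the list of splicing regulators 35 of 89 measured members (39.3%) were higher and 1 lower in F2 mixture, with 25 and 1 held calls and a median difference of 0.37. In the list of spliceosome proteins 31 of 82 (37.8%) were higher and 3 lower, with 24 and 2 held calls and a median of 0.30, against 11.3% higher and a median of -0.04 over all tested genes. Without scaling the higher counts were 27 and 20, and 9 spliceosome genes were lower without F2 mixture 2. For srsf4, a serine- and arginine-rich splicing factor, F2 control 1 to 5 held 16.1, 23.4, 25.2, 31.3 and 18.6 scaled FPKM. Its F2 mixture libraries held 102, 37.8, 104, 108 and 92.2. Replicate 2 was the low one of the mixture line, yet all 5 lay above the controls (1.85 ± 0.27, adjusted p = 0.000142). The 3' splice site factor u2af1 held 24.6, 16.2, 22.6, 19.4 and 16 in F2 control. It held 47, 41.3, 57.5, 49.3 and 67.4 in F2 mixture (1.37 ± 0.21, adjusted p = 0.000196). The F1 means of u2af1, 57.4 and 55.1, were close to the F2 mixture mean of 52.5. Other higher members were rbm25, a regulator of alternative splicing, at 56.1 ± 11.7 and 228 ± 73.6 (1.95 ± 0.31), luc7l2, of the U1 particle (1.58 ± 0.25), cwc25, a step-specific splicing factor (1.17 ± 0.17), and rbm26, a zinc-finger RNA-binding protein (1.35 ± 0.24).

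In the list of 3' end processing, decay and export of mRNA, 19 of 78 (24.4%) were higher and 5 (6.41%) lower, against 11.3% and 14.5% over all tested genes. There were 13 and 2 held calls. Without scaling 9 were higher. The lower count was 11 without F2 mixture 2, 9 with the replicate block, 2 with F2 libraries alone and 2 to 3 without any one of F2 mixture 3 and 4 and F2 control 2 and 5. The cleavage factor gene pcf11 stood at 10.2 ± 3.07 in F2 control and 30.9 ± 11.4 in F2 mixture (1.49 ± 0.25), and pabpn1, which sets the length of poly(A) tails, at 18.2 ± 1.5 and 36.2 ± 3.39 (0.95 ± 0.15). The nonsense-mediated decay gene upf3b (1.43 ± 0.22) and zc3h13, of the complex that methylates adenosines in mRNA (1.37 ± 0.21), were higher as well. Adjusted p of these 4 ran from 0.000181 to 0.000422.

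In the chromatin list 46 of 137 measured members (33.6%) were higher and 7 (5.11%) lower, against 11.3% and 14.5% over all tested genes. There were 31 and 4 held calls and a median of 0.26. Without scaling 16 were higher and 5 lower, so the count of this list depends on the scaling. The methyl-CpG-binding gene mbd1 stood at 10.7 ± 1.09 in F2 control and 24.5 ± 3.06 in F2 mixture (1.13 ± 0.18, adjusted p = 0.000228). The remodeller gene atrx stood at 6.47 ± 1.09 and 12.1 ± 1.95 (0.81 ± 0.14, adjusted p = 0.000541). In both the F2 mixture livers lay above every F2 control liver. The lower count was 12 without F2 mixture 2.

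The lists of translation held fewer calls than those of splicing, as shares of their members. Of 77 cytosolic ribosomal protein genes 4 (5.19%) were higher and 1 (1.3%) lower (1 held call), although the median was 0.30 and 54 had a positive difference. With quantile normalization 17 were higher and 6 lower, and 7 were higher without F2 mixture 2 or F2 control 1. The gene rpl23 held 14544, 8184, 11292, 9420 and 9740 scaled FPKM in F2 control. In F2 mixture it held 35438, 12922, 35714, 25324 and 26619. The groups overlapped through F2 mixture 2 and F2 control 1 (1.3 ± 0.34, adjusted p = 0.00889). Of 77 mitochondrial ribosomal protein genes 9 (11.7%) were higher and 4 (5.19%) lower, against 11.3% and 14.5% over all tested genes. Among the higher ones was mrpl52, at 62.3 ± 10.3 in F2 control and 158 ± 39 in F2 mixture (1.31 ± 0.20). Of 52 genes of translation initiation and elongation 8 (15.4%) were higher and 7 lower, with 5 higher without F2 mixture 3. The initiation factor gene eif5b stood at 8.83 ± 0.474 and 26 ± 5.56 (1.43 ± 0.25) and eif1ad, named for a domain shared with an initiation factor, at 5.3 ± 0.559 and 9.77 ± 1.26 (0.77 ± 0.15). Of 35 tRNA synthetase genes 6 (17.1%) were higher and 1 lower, among them vars2, for mitochondrial valine (1.15 ± 0.27), and aimp1, a scaffold of the synthetase complex (0.87 ± 0.24).

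The clock list held 18 measured members, of which 6 (33.3%) were higher and 1 (5.56%) lower, against 11.3% and 14.5% over all tested genes. Of these, 4 and 1 were held calls. The circadian clock is a loop in which CLOCK and BMAL1 (arntl) switch on per and cry genes, whose products then repress them. For per1, F2 control 1 to 5 held 10.5, 5.53, 3.71, 7.72 and 5.02 scaled FPKM. F2 mixture 1 to 5 held 21.1, 13.8, 18.8, 32.2 and 15.8. All 5 lay above the controls (1.52 ± 0.28, adjusted p = 0.000887). The activator gene arntl held 3.26, 2.28, 2.32, 3.01 and 2.66 in F2 control. It held 10.4, 3.85, 10.9, 12.5 and 4.48 in F2 mixture (1.23 ± 0.27, adjusted p = 0.00312). Here F2 mixture 2 and 5 lay nearest to the controls. The repressor gene cry2 held 21.7, 12.2, 20.2, 15.2 and 10.6 in F2 control. In F2 mixture it held 40.1, 45.4, 49.4, 89.2 and 16.9, with F2 mixture 5 inside the control range (1.40 ± 0.33, adjusted p = 0.00452). In contrast to per1, whose F1 means were 25.8 and 21.4, the F1 means of cry2 were 13.5 and 12.9, near the F2 control mean of 16. The fourth held higher call was per3, at 25 ± 6.15 and 60.6 ± 23.9 (1.2 ± 0.32).

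The calls of cry1 (0.62 ± 0.21, adjusted p = 0.0346) and of csnk1d, a kinase that acts on PER proteins (0.43 ± 0.15, adjusted p = 0.045), did not hold. The adjusted p of cry1 was 0.0517 to 0.11 without any one of F2 mixture 2 and 4 and F2 control 1, 3 and 5, and that of csnk1d was 0.069 to 0.145 without any one of F2 mixture 3 and 4 and F2 control 1, 3, 4 and 5. Expression of nfil3, a repressor of clock output, ran from 7.12 to 68.2 in F2 control and from 1.97 to 102 in F2 mixture (-1.18 ± 0.67, adjusted p = 0.205), and without F2 mixture 1, the liver at 102, it was -1.94 with an adjusted p of 0.0115. Members that did not pass included the following, with differences of -0.24 ± 0.21 for clock, 0.42 ± 0.15 for arntl2 (adjusted p = 0.0519, a locus that overlaps stk38l), -0.01 ± 0.24 for per2, 0.67 ± 0.36 for nr1d1, 0.28 ± 0.28 for nr1d2, -0.23 ± 0.18 for tef, 0.13 ± 0.29 for ciart, -0.17 ± 0.45 for bhlhe40, -0.24 ± 0.17 for csnk1e and 0.26 ± 0.19 for timeless. No source used here gives the hour at which the livers were taken.

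Genes that regulate growth and nutrient use went both ways. For igf1, the growth factor that the liver releases in response to growth hormone, F2 control 1 to 5 held 5.96, 23.9, 8.1, 4.98 and 43.1 scaled FPKM. Its F2 mixture libraries held 2.46, 0.996, 2.05, 1.59 and 1.4. The groups did not overlap, with F2 control 2 and 5 far above the other controls (-2.33 ± 0.39, adjusted p = 0.000453). The adaptor gene grb10, which restrains insulin and IGF receptors, held 5.14, 5.48, 4.64, 4.45 and 4.54 in F2 control. In F2 mixture it held 18.2, 9.52, 32.3, 37.7 and 4.15, with F2 mixture 5 below the controls (1.53 ± 0.38, adjusted p = 0.00688). The locus of grb10 overlaps LOC116411460. In the insulin, IGF and growth hormone list 1 of 28 (3.57%) was higher and 7 (25%) lower, with 1 and 2 held calls. Over all tested genes 11.3% were higher and 14.5% lower. The lower count of this list was 3 to 4 without F2 mixture 3, F2 control 2 or F2 control 4 and with F2 libraries alone. In the TOR, AMPK and amino acid sensing list 6 of 31 (19.4%) were higher and 3 (9.68%) lower. Among the higher ones were the kinase gene stk11, which activates AMPK, at 3.87 ± 0.805 and 12.9 ± 4.27 (1.48 ± 0.24), and castor2, at 5.94 ± 0.99 and 16.9 ± 5.08 (1.34 ± 0.22). Without F2 mixture 2 the counts of this list were 10 and 5, and without scaling 3 were higher.

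Among transcription factors, hnf4a, which maintains hepatocyte identity, held 5.68, 8.23, 6.32, 9.3 and 9.52 scaled FPKM in F2 control. It held 3.79, 2.22, 5.86, 5.49 and 4.47 in F2 mixture, with an overlap of F2 mixture 3 and F2 control 1 (-0.74 ± 0.20, adjusted p = 0.0101). In the nuclear receptor list 3 of 25 (12%) were higher and 3 (12%) lower, near the 11.3% and 14.5% over all tested genes. Among the higher ones was rxra, the shared partner of many receptors, at 3.46 ± 0.627 and 6.42 ± 2.07 (0.69 ± 0.19). The oestrogen receptor gene esr1, which drives vitellogenin, stood at 7.29 ± 2.81 and 5.26 ± 3.4 (-0.53 ± 0.31, adjusted p = 0.212). Of the 15 genes of the vitellogenin list 6 were measured, and 0 of these were called. The vitellogenin gene vtga2 could not be tested because its estimate was missing in 9 F2 libraries. In the list of fed and fasted state regulators 1 of 21 (4.76%) was higher and 4 (19%) lower (7 without F2 mixture 1). Among the lower ones was klf15, a fasting-responsive factor, at 6.99 ± 3.49 and 1.87 ± 2.88 (-1.79 ± 0.36).

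Fatty acid oxidation was among the lists with the largest shares of lower members. Of 52 measured genes of fatty acid oxidation, ketone bodies and peroxisomes, 22 (42.3%) were lower and 0 higher, with 11 held calls and a median of -0.49, against 14.5% lower over all tested genes. The lower count was 12 without F2 control 3, 13 without F2 mixture 4 and 14 without F2 control 5. Leaving out F2 mixture 2 gave 21 lower and 2 higher. The gene abcd3, a fatty acid transporter of the peroxisome membrane, held 7.04, 8.18, 8.06, 6.61 and 8.88 scaled FPKM in F2 control. It held 3.61, 3.86, 4.06, 3.05 and 3.49 in F2 mixture. The groups were well apart (-0.92 ± 0.16, adjusted p = 0.00046), and the F1 means were 2.98 in control and 4.55 in mixture. The peroxisomal oxidase gene acox3 stood at 5.32 ± 1.29 and 1.75 ± 0.69 (-1.21 ± 0.19). In the citric acid cycle 9 of 22 (40.9%) were lower and 2 higher, with 7 and 1 held calls, and 8 to 10 lower with any one F2 library left out, among them aco1, whose protein also binds RNA of iron genes (-0.95 ± 0.18). In contrast, 1 of 36 complex I genes was lower and 1 higher, the latter being the subunit gene ndufv1 (1.19 ± 0.24), and 1 of 34 genes of complexes III to V was lower, the core subunit gene uqcrc2, at 26.9 ± 5.01 and 12 ± 2.95 (-1.12 ± 0.23). With quantile normalization 5 complex I genes were higher, and without scaling 5 genes of complexes III to V were lower.

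Breakdown of sugars and amino acids held lower and higher enzymes. In amino acid breakdown 10 of 51 (19.6%) were lower and 1 higher, with 8 and 1 held calls, against 14.5% lower over all tested genes. Among them, mat1a, which makes S-adenosylmethionine, stood at 27.2 ± 9.73 in F2 control and 7.86 ± 4.74 in F2 mixture (-1.77 ± 0.37), auh, of leucine breakdown, at 11.6 ± 0.986 and 5.81 ± 2.56 (-0.97 ± 0.22), and gcsh, of the glycine cleavage system, at 185 ± 47.4 and 89.5 ± 20.1 (-1.03 ± 0.24). In the urea cycle list 3 of 11 (27.3%) were lower and 0 higher. Among the lower ones were asl, which splits argininosuccinate (-1.43 ± 0.34), and cps1, the entry enzyme, at 338 ± 63.2 and 179 ± 52.5 (-0.94 ± 0.28). In glycolysis 3 of 28 (10.7%) were higher and 5 (17.9%) lower, near the 11.3% and 14.5% over all tested genes. The list held gpi, glucose phosphate isomerase, at 61.8 ± 8.14 and 24.6 ± 5.8 (-1.32 ± 0.24), and gckr, the inhibitor of glucokinase, at 38 ± 13.9 and 168 ± 121 (1.88 ± 0.46). In gluconeogenesis and glycogen 1 of 25 (4%) was higher and 4 (16%) lower. Among the lower ones was got2, the mitochondrial aspartate transaminase, at 114 ± 16.1 in F2 control and 57.1 ± 12.7 in F2 mixture (-1.0 ± 0.20).

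In other lists of lipid handling the shares of lower members ran from 12.9% to 20.8%, near the 14.5% over all tested genes. Their medians lay further from the -0.04 over all tested genes. They were -0.44 for lipoproteins and lipid droplets, -0.48 for fatty acid synthesis, -0.56 for cholesterol and -0.19 for bile acids. Without F2 mixture 2 these medians were -0.22, -0.44, -0.54 and 0.01, so those of lipoproteins and bile acids depended on that library. In the lipoprotein and lipid droplet list 6 of 30 (20%) were lower, all held, and 1 higher. Beside mttp.1 these included lcat, which esterifies cholesterol in plasma, at 23.3 ± 8.59 and 7.32 ± 3.96 (-1.61 ± 0.30), and the receptor gene scarb1, at 50.7 ± 16.8 and 20.5 ± 6.08 (-1.25 ± 0.24). In fatty acid synthesis 5 of 24 were lower and 0 higher, with 3 held calls and 3 lower without any one of F2 mixture 3 and 4 and F2 control 1 and 4, as with F2 libraries alone. In cholesterol synthesis and uptake 4 of 31 were lower and 1 higher, with ebp, a sterol isomerase, at 13.6 ± 5.28 and 3.16 ± 2.47 (-1.97 ± 0.51), and ggps1, which makes geranylgeranyl diphosphate, at 5.97 ± 0.592 and 14.6 ± 5.56 (1.1 ± 0.25). In bile acid synthesis and transport 3 of 17 were lower and 0 higher (5 lower without scaling, 2 higher without F2 mixture 2). Among the lower ones was scp2, a sterol carrier of the peroxisome, at 160 ± 30.6 and 80.5 ± 21.5 (-1.0 ± 0.20).

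Of 27 measured genes of aryl hydrocarbon receptor signalling and P450 enzymes, 10 (37%) were lower and 0 higher, with 8 held calls and a median of -0.40. For cyp1a1, F2 control 1 to 5 held 59, 99.1, 83.1, 115 and 121 scaled FPKM. F2 mixture 1 to 5 held 47, 12.3, 60.2, 44.7 and 44.7. F2 mixture 3 lay just above F2 control 1, and F2 mixture 2 was the low extreme (-1.29 ± 0.33, adjusted p = 0.00719). The F1 means of cyp1a1, 63.3 in control and 70.3 in mixture, lay between the F2 means. For cyp4v2.2, a fatty acid hydroxylase, F2 control held 17.4, 16.9, 19.7, 20 and 30.9. It held 8.94, 8.07, 9.91, 6.59 and 10.4 in F2 mixture (-1.15 ± 0.18, adjusted p = 0.000285). The orphan P450 gene cyp2u1 stood at 31.9 ± 10.4 and 13.8 ± 7.48 (-1.2 ± 0.27). Of 43 genes of conjugating enzymes and glutathione 10 (23.3%) were lower and 0 higher, against 14.5% lower over all tested genes. There were 5 held calls, among them the mitochondrial thioredoxin gene txn2 (-0.62 ± 0.15), and 6 genes were lower without F2 mixture 4. Leaving out F2 mixture 2 gave 11 lower and 3 higher. In thyroid, retinoid and steroid metabolism 9 of 31 (29%) were lower and 1 higher, with 7 held lower calls, among them the retinal dehydrogenase gene aldh1a1.

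In the iron and heme list 12 of 33 (36.4%) were lower and 0 higher, against 14.5% and 11.3% over all tested genes. There were 6 held calls, ferroportin among them. Leaving out F2 mixture 2 gave 14 lower and 2 higher. The lower count was 6 without F2 mixture 5 and 7 without F2 control 2. Red blood cell markers, given above, had a lower median sum in F2 mixture, and their part in this list was not tested.

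Plasma protein genes were lower in part. In the coagulation list 8 of 26 (30.8%) were lower and 0 higher, with 4 held calls, and 4 to 5 were lower without any one of F2 mixture 2, 3 and 4 and F2 control 1, 4 and 5. The fit without F2 mixture 2 called 2 higher and 4 lower. For fgb, the fibrinogen beta chain, F2 control 1 to 5 held 2233, 1294, 1631, 1530 and 2104 scaled FPKM. Its F2 mixture libraries held 1056, 409, 354, 149 and 634. The highest mixture liver lay below the lowest control (-2.0 ± 0.44, adjusted p = 0.00306). The clotting inhibitor gene serpind1, which overlaps pi4ka, stood at 286 ± 39.1 and 112 ± 56.5 (-1.46 ± 0.37), and ggcx, which carboxylates clotting factors, at 8.64 ± 1.68 and 4.18 ± 1.62 (-0.94 ± 0.23). Among 27 secreted plasma proteins, 10 of which are also on the coagulation list, 6 (22.2%) were lower and 0 higher (3 lower without F2 mixture 4). Leaving out F2 mixture 2 gave 3 higher and 4 lower, and the median of this list moved from -0.50 to -0.29. Over all tested genes 14.5% were lower. Of the 6 lower genes 4 are shared with the coagulation list, fgb and serpind1 among them. Of the others, gc, the vitamin D carrier, stood at 202 ± 60.8 and 86.9 ± 41.7 (-1.3 ± 0.33). Of 27 complement genes 0 were called, and 5 were lower without F2 mixture 1. Albumin, alb, could not be tested because its estimate was missing in 4 F2 libraries.

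In the lists of the secretory route the shares of lower members were near the 14.5% over all tested genes. Most of these lower calls did not hold. The medians were -0.30 for ER entry and folding and -0.19 for COPII, COPI and Golgi, against -0.04 over all tested genes. In the list of ER entry, folding and unfolded protein response 11 of 61 (18%) were lower and 2 higher, with 3 held calls. The lower count of this list was 3 to 7 without any one of F2 mixture 4 and F2 control 1, 3 and 5. Held examples were ssr1, of the translocon, at 79.5 ± 22.8 and 36.4 ± 9.19 (-1.09 ± 0.28), and sec63 (-0.72 ± 0.17). In the COPII, COPI and Golgi list 8 of 50 (16%) were lower and 5 (10%) higher, with 3 held calls each way. These included the cargo receptor tmed9 (-1.35 ± 0.28) and the COPII-associated sec23ip (0.92 ± 0.16). The lower count was 3 to 5 without any one of F2 mixture 4 and F2 control 3, 4 and 5, and the higher count 3 without F2 mixture 4. In the lysosome and autophagy list 18 of 71 (25.4%) were lower and 1 higher, with 10 and 1 held calls, and 10 to 11 were lower without F2 mixture 4 or F2 mixture 3. The lysosomal protease gene ctsd stood at 49.4 ± 10.2 and 17.6 ± 5.16 (-1.46 ± 0.21). Of 46 proteasome genes 4 (8.7%) were higher and 3 (6.52%) lower (6 lower without F2 mixture 2). Among them psmd5, an assembly chaperone, was lower (-1.65 ± 0.22) and psmc5, an ATPase subunit whose locus overlaps smarcd2, higher (0.75 ± 0.18). Of 78 ubiquitin enzymes 8 (10.3%) were higher and 10 (12.8%) lower, among them the ligase gene cul9 (0.78 ± 0.18) and ube2v1 (0.74 ± 0.19). Of 44 chaperones 6 (13.6%) were higher and 8 (18.2%) lower, among them dnajc2, of the ribosome (1.11 ± 0.23), and dnajc15, of mitochondria (-0.97 ± 0.15). The ubiquitin counts ran from 4 higher without F2 mixture 4 to 13 without F2 mixture 1, with 5 without F2 control 1 or 5, and from 6 lower without any one of F2 mixture 3 and 4 and F2 control 2 to 20 without F2 mixture 2. For chaperones 2 were higher without F2 mixture 4, and 5 were lower without any one of F2 mixture 1, 3 and 4 and F2 control 2, 3 and 5. Without scaling 3 ubiquitin enzymes, 3 chaperones and 2 genes of the COPII, COPI and Golgi list were higher.

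Lists of stress, growth and immunity held calls in both directions or few calls. Over all tested genes 11.3% were higher and 14.5% lower. In the DNA damage list 11 of 67 (16.4%) were higher and 10 (14.9%) lower (6 higher without scaling, 6 lower without F2 mixture 3), with the nucleotide excision repair genes ercc2 (1.21 ± 0.22) and ercc5 (1.21 ± 0.23) higher and ccng2, a cyclin linked to growth arrest, lower (-1.32 ± 0.22). In the extracellular matrix and adhesion list 7 of 55 (12.7%) were higher and 11 (20%) lower. The higher count was 4 with F2 libraries alone and without any one of F2 mixture 3, 4 and 5 and F2 control 5, and 3 without scaling. Among the lower ones were the tight junction gene cldn2 (-1.69 ± 0.40) and ctnnb1, beta-catenin (-0.71 ± 0.16). In the innate immune list 2 of 43 (4.65%) were higher and 6 (14%) lower. The interleukin receptor gene il6r stood at 2.07 ± 0.189 and 5.36 ± 1.5 (1.02 ± 0.20) and the receptor gene tlr2 at 10.6 ± 4.77 and 3.22 ± 2.41 (-1.51 ± 0.34). Of 20 measured cell cycle genes 3 (15%) were higher and 1 (5%) lower, with 5 higher without F2 mixture 1 or with quantile normalization. Of 14 immediate early genes 1 (7.14%) was lower and 1 had a positive difference. Despite the few calls, their median of -0.90 was the lowest of the 44 gene lists, against -0.04 over all tested genes. With the replicate block 5 were lower.

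**Figure D5:**
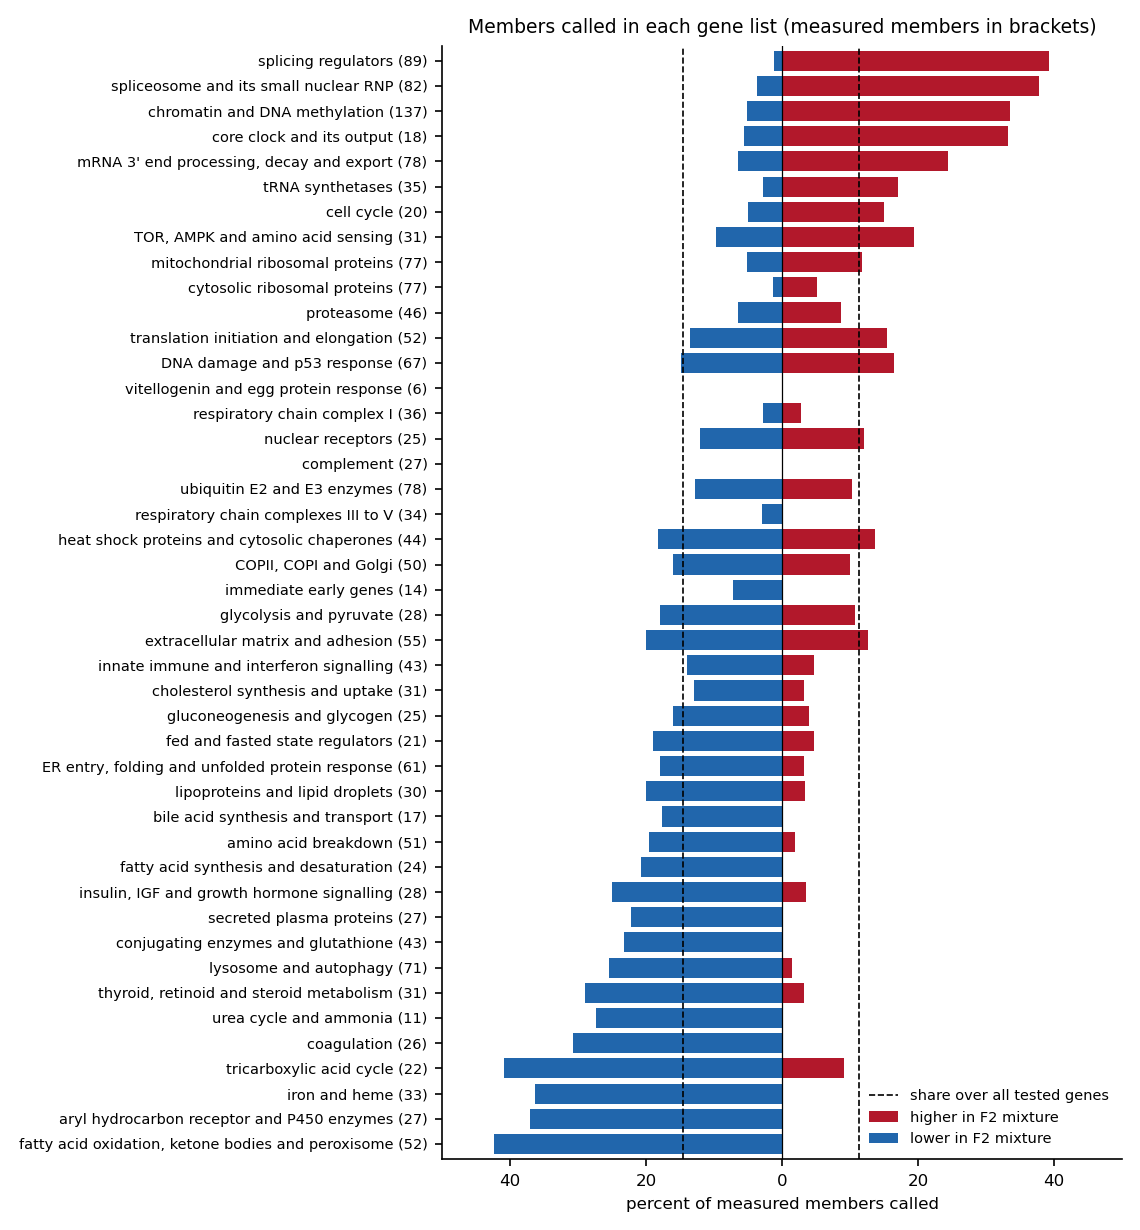
Percent of measured members of each gene list that were called higher (red, to the right) or lower (blue, to the left) in F2 mixture, with the number measured in brackets and dashed lines at the shares over all tested genes, 11.3% and 14.5%. Lists of RNA processing, chromatin and the clock lie at the top with 24.4% to 39.3% higher, and fatty acid oxidation, P450 enzymes, iron and the citric acid cycle at the bottom with 36.4% to 42.3% lower.

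A smaller set of genes had the F2 mixture livers themselves outside the other 15 livers. There were 56 such genes, 8 above and 48 below, chosen by these values and given as a description. The retinal dehydrogenase gene aldh1a1 ran from 7.71 to 25 scaled FPKM in F2 mixture and from 29 to 87.7 in the other 15 livers, with an F2 difference of -1.46 ± 0.30. The flavin monooxygenase gene fmo2 ran from 8.35 to 29.3 against 39.1 to 140 (-1.38 ± 0.30), and the quinone reductase gene cryz from 5.84 to 18.5 against 22.2 to 49.8 (-1.24 ± 0.27). The carbonyl reductase gene dcxr ran from 7.38 to 10.6 against 10.8 to 45.7 (-1.52 ± 0.33), and the P450 gene cyp4b1.2 from 1.43 to 3.33 against 4.32 to 8.78 (-1.36 ± 0.16). In the lower set were also ppp1r3c.1, which directs a phosphatase to glycogen, from 13.8 to 19.2 against 22.5 to 86.2, and the histone variant gene macroh2a1, from 2.78 to 4.93 against 6.76 to 11.2. The sorting nexin gene snx7 ran from 1.2 to 2.88 against 3.05 to 6.14. Above the other livers lay sf3b2, a spliceosome subunit, from 13.8 to 17.9 against 8.82 to 12.2, and paip2b, a repressor of poly(A)-binding protein, from 54.7 to 65.1 against 33.8 to 51.3. The genes rbm34, mttp.1 and cyp4v2.2, described above, belong to the same 56.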

How the data were processed

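Per the submitters' processing notes the authors used Trimmomatic 0.32.1, HISAT2, Cufflinks 0.0.7 and Cuffdiff 0.0.7. They deposited FPKM per library. Per the file headers, each generation's Cuffdiff table adds q-values and p-values beside its score and log2 fold change; only the significance mark of the F2 table was used. No source used here names the genome build. Of 20372 named genes, 20164 (99.0%) had the start and end of the RefSeq table for UCB_Xtro_10.0, and printed coordinates are those of the deposited tables. Lines without a name, at most 0.00856% of the FPKM total, were dropped.

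Values not marked OK were set to missing, in 47 genes, of which 12 could not be tested. FPKM were divided by median-ratio factors (6971 genes, factors 0.717 to 1.263), and log2 was taken after adding 1. Genes that averaged at least 1 FPKM over 20 libraries and had 3 or more values per group entered limma 3.58.1 (R 4.3.3; variance trend, 20 libraries, 4 group means, two-sided, Benjamini-Hochberg threshold 0.05). In 6 called genes a whole F2 group was listed at 0, and none of them is named. F1 values served as reference levels and for the F2 minus F1 contrast.

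The F2 libraries carry replicate numbers 1 to 5 in both groups. Deviations from the group means of same-numbered libraries correlated at 0.385, 0.369, 0.154, 0.104 and 0.169 across genes. Pairs with different numbers ran from -0.479 to 0.167. F2 mixture 3 with F2 control 5 reached 0.167 and F2 mixture 4 with F2 control 3 reached 0.129, above the same-numbered pairs of these mixture libraries. Whether the numbers pair the libraries is therefore not settled. The main fit, with its SE and p, did not use them, and the block served as an alternative fit and for held calls. With the replicate block 2908 genes were called, 1245 higher and 1663 lower.

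The comparison, the 44 gene lists, the 8 marker lists and the tests were chosen with earlier results of these data known. Lists are described by counts and medians, with no set test. Named are held calls with a symbol, values above 0 in all 10 F2 libraries and a mean of 5 or more in an F2 group. These are the 12 per direction with the smallest p, up to 4 per list, and, whatever their values, the clock genes, cyp1a1, igf1, esr1 and hnf4a. Not every gene that the rule names is printed, and some results are not reported here. The cell markers and the genes whose F2 mixture livers lay outside all others were named after their values were seen. Alternatives were no scaling, quantile normalization, another pseudocount, other filters, library weights, a length trend removed, a red blood cell covariate, the block, F2 libraries alone and each F2 library left out.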

Additional observations from a re-analysis of the deposited data

Results flagged for a closer look

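Genes named only as cell markers were left out of this section. Among 120 genes named above, 22 of 240 groups of 5 livers held 1 liver far from the other 4. The rule flags about 5% of groups of normally distributed values. Whether scaled FPKM of these selected genes are so distributed was not tested, so the 22 are given as a description. In F2 mixture 4 these were yaf2 at 28.2, gtf3c5 at 17, rbm26 at 29.1 and castor2 at 25.7 scaled FPKM, each the highest of the group. In F2 mixture 1 they were il13ra1 at 1.96, nfil3 at 102, csnk1e at 9.63 and klf15 at 6.99, all highest. In F2 mixture 2 they were gm2a at 2.55 and psmd5 at 3.8, both highest, and srsf4 at 37.8, the lowest. F2 mixture 5 was highest for cyp2u1 at 27.1 and tlr2 at 7.39, and F2 mixture 3 lowest for macroh2a1 at 2.78. Among the controls, F2 control 5 was highest for apln at 34.5, cyp4v2.2 at 30.9, gc at 307 and aldh1a1 at 80.6, F2 control 1 for ube2v1 at 24.5 and macroh2a1 at 11.2, and F2 control 3 for esr1 at 12.2, while F2 control 2 was lowest for auh at 9.87.

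For 95 of the 120 named genes the mixture effect in F2 differed from that in F1 by the test of the difference itself (limma, Benjamini-Hochberg adjusted p under 0.05). Over all tested genes the share was 20.1%, but most named genes were chosen for their F2 effect, which is part of this difference, so the shares are not comparable. With the red blood cell covariate the count over all tested genes fell from 2052 to 1211. The values below are the F2 effect minus the F1 effect on the log2 scale.

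Positive differences were found for the transcription and chromatin genes yaf2 (1.76), paf1 (1.72), gtf3c5 (1.67), smarce1 (1.42), brd3 (2.35), ints3 (2.0), mbd1 (1.39) and atrx (1.02), and for rbm34 (1.05), nop2 (1.64), tsg101 (0.75) and ccdc93 (1.86). In RNA processing they were found for ppig (1.72), sltm (2.18), cwc25 (1.3), u2af1 (1.44), luc7l2 (1.90), srsf4 (2.31), rbm25 (2.54), rbm26 (1.63), zc3h13 (1.87), upf3b (1.83), pabpn1 (1.06), pcf11 (1.55), sf3b2 (0.52) and paip2b (0.78). In translation they were eif5b (1.83), eif1ad (0.76), mrpl52 (1.28) and vars2 (1.15). In the clock they were per1 (1.84), arntl (1.85), cry2 (1.5), per3 (1.49) and cry1 (1.09). Elsewhere they were grb10 (1.74), stk11 (1.63), castor2 (1.86), gckr (2.86), ggps1 (1.17), ndufv1 (1.19), sec23ip (0.94), cul9 (1.11), ercc2 (1.31), ercc5 (1.44) and il6r (0.96).

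Negative differences were found for the lead genes mttp.1 (-1.97), il13ra1 (-2.0), adtrp (-2.56), mpp1 (-2.54), aplp2 (-1.99), capza2 (-1.70), gm2a (-2.44), apln (-3.13), xbg100487674 (-2.37), slc40a1 (-2.07) and pxmp2 (-1.75). In lipid, sugar and amino acid metabolism they were found for gpi (-1.34), got2 (-0.93), mat1a (-1.82), auh (-1.21), gcsh (-1.5), acox3 (-1.03), abcd3 (-1.41), scp2 (-1.19), lcat (-1.65), scarb1 (-1.24), uqcrc2 (-1.74), aco1 (-0.83) and ppp1r3c.1 (-1.89). Among oxidising and reducing enzymes they were cyp4v2.2 (-1.21), cyp1a1 (-1.43), cyp4b1.2 (-1.51), txn2 (-1.27), fmo2 (-1.91), cryz (-1.35) and aldh1a1 (-2.02). In regulators they were klf15 (-1.80), hnf4a (-0.92) and igf1 (-2.32). In secretion, plasma proteins and turnover they were fgb (-2.45), gc (-1.70), serpind1 (-2.31), ggcx (-1.41), ssr1 (-1.59), sec63 (-1.02), tmed9 (-2.04), ctsd (-1.47), psmd5 (-1.76) and dnajc15 (-1.48). The remaining ones were ccng2 (-1.0), cldn2 (-1.63), ctnnb1 (-0.76), macroh2a1 (-1.02) and snx7 (-1.41).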

How the results depend on the processing

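Under the other settings most counts stayed within 1.5 times of those reported. Where a mean FPKM of 5 or more was required, 5223 genes were tested and 1486 were called, 878 higher and 608 lower. Without scaling 624 genes were higher, and the cause was not tested. With 1 F2 library left out, genes called ran from 1774 to 3287, higher genes from 762 to 1409, lower genes from 1012 to 1878 and genes with a difference between generations from 1410 to 2750, the lowest without F2 mixture 4 and the highest without F2 mixture 2 in each case. The difference between generations was called in 1358 genes at a mean FPKM of 5 or more, 3864 with library weights and 1211 with the red blood cell covariate, and the cause was not tested.

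The calls of cry1 and csnk1d ended under some settings. Genes named only as cell markers were not followed here. The other 106 of the 108 called genes followed kept direction and call in each of the 22 alternatives that gave a value. Of these alternatives, the 10 left-out libraries and the replicate block (2908 genes called) were part of the rule that chose most of the genes. Among the genes followed, directions turned only for clock genes that were not called. For per2 the difference was 0.13 with quantile normalization, 0.05 with a pseudocount of 0.1, 0.00 with the length trend removed, with or without the replicate block, 0.09 with the red blood cell covariate and -0.22 to 0.16 with 1 library left out. With 1 library left out it was -0.12 (without F2 mixture 3) to 0.35 for ciart and -0.36 to 0.01 (without F2 mixture 2) for bhlhe40, which stood at 0.05 with library weights. The calls of arntl2 and timeless appeared under some settings. The authors' deposited table marked 98 of these 108 selected genes. Over all tested genes it marked 17.8%, but most of the 108 were chosen for their calls in the same F2 libraries, so the shares are not comparable. Limits are the missing read counts, the unnamed clutches and a control group whose reads came from an earlier deposit.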
